A study of Mus musculus with 27 samples.

Results

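The genes described here are 40 named genes of cell proliferation, taken by their symbols from the 18855 targets measured in cancer-associated fibroblast (CAF) segments of mouse liver metastases. All 40 were measured. By their roles they were divided into 13 genes of DNA replication, 19 genes of mitosis, 5 genes that control the passage from G1 into S phase, and 3 brakes on the cell cycle.

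A dividing cell copies its DNA in S phase and separates the copies in mitosis. Genes for the copying machinery are switched on by E2F transcription factors when cyclin and cyclin-dependent kinase (CDK) complexes inactivate the retinoblastoma protein, while many genes for mitosis are held back until late in the cycle through a short promoter element called CHR. CDK inhibitors oppose these kinases. In tumors, transcripts of replication and mitosis genes mark cycling cells of any type.

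The samples were 13 regions of interest (ROIs) of metastases grown from MC38 cells, a mouse colon cancer line, with shRNA knockdown of CMTM6, a membrane protein that stabilizes PD-L1, and 14 ROIs of control metastases from MC38 cells with a nontargeting shRNA. Both were injected into the portal vein of 2-month-old C57BL/6 mice, and CMTM6 was silenced in the injected cancer cells and not in the fibroblasts. In each ROI, probe tags of the GeoMx mouse whole transcriptome panel were collected from the area stained for desmin, a filament of stellate and other contractile cells, and counted by sequencing. The study took 3 mice per group, and no label says which mouse an ROI came from, so ROIs share animals and all p-values here, which are taken over ROIs, are too small.

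Recovered reads were 76346 to 2776820 per knockdown ROI (median 1138839) and 659571 to 3269149 per control ROI (median 1635294). The lowest belonged to knockdown ROI 26, where 1 read was worth 14.1 units of the deposited value and each of the 40 genes had 1 to 42 reads. The 75th percentile of the deposited values was 43.9 to 45.7 in the other 12 knockdown ROIs and 56.4 in ROI 26, against 70.3 to 72.6 in control ROIs, so it lay near one level within a group, ROI 26 aside, and differed between the groups. All 27 columns carry the same slide name. Cmtm6 itself had 47.7 to 98.6 in knockdown ROIs (median 57.1) and 60.5 to 103 in control ROIs (median 89.5), and its log2 difference relative to the median gene was 0.08 (SE 0.10, limma adjusted p = 0.81). Col1a1, the fibroblast marker, was far above background in every ROI, with 3620 to 11500 in knockdown and 6850 to 16400 in control ROIs. The epithelial markers were low. Epcam had 5.71 to 16.9 in knockdown and 11.3 to 32.0 in control ROIs and did not pass the background set by 1084 odorant, taste and other receptor, keratin-associated and defensin genes that CAFs should lack, while Krt8 passed it with 6.85 to 28.9 in knockdown and 12.1 to 115 in control ROIs. All 40 proliferation genes passed this background, as 11317 of all targets (60.0%) did. The area holds every cell within the desmin mask, and fewer cycling cells and less RNA per cell cannot be told apart.

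E2F and CHR elements are known controls of replication and of mitosis genes, and so the promoters of 4 genes are shown that hold such letters and, among those that do and have 1 start, followed the rest of their list most closely from ROI to ROI. RefSeq promoters (build GRCm38.p6, 250 bases before to 50 after the start of the gene) were given for 32 of the 40 genes, 3 of them with more than 1 start. The letters TTTGAA (the CHR element), CCAAT and any of TTTGGCGC, TTTCCCGC, TTTCGCGC or TTTGCCGC (E2F) were searched on both strands. Mcm3 (chr1:20820263-20820562, minus strand) and Mcm5 (chr8:75109259-75109558, plus strand), subunits of the replicative helicase, have E2F letters and CCAAT in capitals, and Cdc20 (chr4:118437294-118437593, minus strand), the activator of the anaphase-promoting complex, and Mki67 (chr7:135716330-135716629, minus strand), the gene of the Ki-67 antigen, have TTTGAA and CCAAT in capitals. Each is written 5′ to 3′ on the strand of the gene.
Mcm3: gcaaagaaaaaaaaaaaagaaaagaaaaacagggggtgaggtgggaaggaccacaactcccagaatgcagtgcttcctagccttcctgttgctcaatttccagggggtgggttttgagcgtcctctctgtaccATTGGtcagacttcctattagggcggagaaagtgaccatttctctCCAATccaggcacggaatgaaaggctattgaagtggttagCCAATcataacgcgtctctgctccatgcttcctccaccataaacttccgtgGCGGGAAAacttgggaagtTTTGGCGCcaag
Mcm5: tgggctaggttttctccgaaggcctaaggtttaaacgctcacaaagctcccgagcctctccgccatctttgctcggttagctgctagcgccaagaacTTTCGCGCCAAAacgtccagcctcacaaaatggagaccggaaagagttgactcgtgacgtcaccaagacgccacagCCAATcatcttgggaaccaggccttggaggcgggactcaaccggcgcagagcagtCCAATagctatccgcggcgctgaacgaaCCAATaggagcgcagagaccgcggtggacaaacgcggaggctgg
Cdc20: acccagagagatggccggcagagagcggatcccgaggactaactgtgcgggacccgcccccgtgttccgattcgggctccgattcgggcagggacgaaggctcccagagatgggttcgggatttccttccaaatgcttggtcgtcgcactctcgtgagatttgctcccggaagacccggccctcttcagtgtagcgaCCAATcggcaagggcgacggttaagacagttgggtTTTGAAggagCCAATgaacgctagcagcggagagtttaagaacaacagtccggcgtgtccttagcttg
Mki67: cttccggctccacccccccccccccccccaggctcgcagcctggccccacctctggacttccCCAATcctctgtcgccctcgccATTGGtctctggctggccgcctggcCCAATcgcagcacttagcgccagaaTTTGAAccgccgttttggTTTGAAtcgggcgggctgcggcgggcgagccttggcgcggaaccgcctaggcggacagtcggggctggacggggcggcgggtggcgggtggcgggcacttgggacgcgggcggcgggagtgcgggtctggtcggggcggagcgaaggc

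In Mcm5 the matches to TTTCGCGC at position -153 and to TTTGGCGC on the other strand at -149 overlap and share letters, and both E2F matches of Mcm3 lie after the start, at positions 20 and 39. Cdc20 holds TTTGAA at -18, and Mki67 holds it at -116 and -98. Over the lists, E2F letters were found in 6 of 12 replication genes (50.0%) and in 1 of 15 mitosis genes, Cdk1 (6.67%), beside 2.6% of all 27025 genes of the table, counted the same way, and 2.26% of its 32851 promoters. TTTGAA was found in 10 of 15 mitosis genes (66.7%) and 2 of 12 replication genes, Mcm2 and Cdc7 (16.7%), beside 20.2% of all genes and 17.9% of all promoters. CCAAT was found in 13 of 15 mitosis genes (86.7%) and 8 of 12 replication genes (66.7%), beside 41.1% of all genes and 37.4% of all promoters. TTTGAA and CCAAT stood together in 10 of 15 mitosis genes (66.7%) and in 1 of 12 replication genes (8.33%), beside 7.97% of all genes and 6.95% of all promoters. A match is a run of letters and not evidence of binding, and the windows of genes with more than 1 start were counted as 1 gene when any of them held the letters.

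The first question was whether proliferation genes differed between CAF segments of knockdown and control metastases. As deposited, all 40 genes were lower in knockdown ROIs, with log2 differences of -0.94 (Top2a) to -0.53 (Tyms and Plk1), and all 40 passed limma's test (adjusted p under 0.05, all targets adjusted together). So did 94% of all 18855 targets, whose median difference was -0.66 against -0.68 for the 40 genes, and this shift goes with the unequal 75th percentiles. In 7 of the 40 genes (Mcm2, Mcm6, Top2a, Cdc20, Aurkb, Cenpe and Cdk2) every knockdown ROI lay below every control ROI, beside 13.2% of all targets and 21.8% of targets above background. Values were therefore also compared relative to the median gene, which is log2(value + 1) minus the median over all targets of that ROI.

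Relative to the median gene, none of the 40 genes passed limma's test after adjustment over all targets in either direction, beside 0.0053% of targets that were lower (1 of 18855) and 0.111% that were higher (21 targets). Adjusted p ranged from 0.388 to 0.995. At an unadjusted p under 0.05, 2 genes were lower (Cdc7 and Cenpe) and none was higher, which is 5.0% of the 40 genes, beside 6.73% of all targets that were lower and 3.16% that were higher. Of targets above background, 9.21% were lower and 3.35% higher. Without ROI 26, 1 of the 40 genes (Cdc7) stayed under this p, beside 1792 of all 18855 targets in either direction. On the recovered reads, edgeR called none of the 40 (0.679% of all targets in either direction) and DESeq2 called none (0.995% of its 13371 targets). At an unadjusted edgeR p under 0.05, 1 of the 40 genes was lower (Cdc7) and none was higher, beside 747 of all 18855 targets lower and 1057 higher. The median log2 difference over the 40 genes was -0.08, beside -0.05 over all targets and -0.08 over targets above background, and 30 of the 40 lay below 0, as 70.3% of targets above background did. Without knockdown ROI 26 the median was -0.01 over the 40 genes and -0.04 over targets above background, and 23 of 40 lay below 0. On this scale the 2 groups overlapped for every one of the 40 genes.

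**Figure D1:**
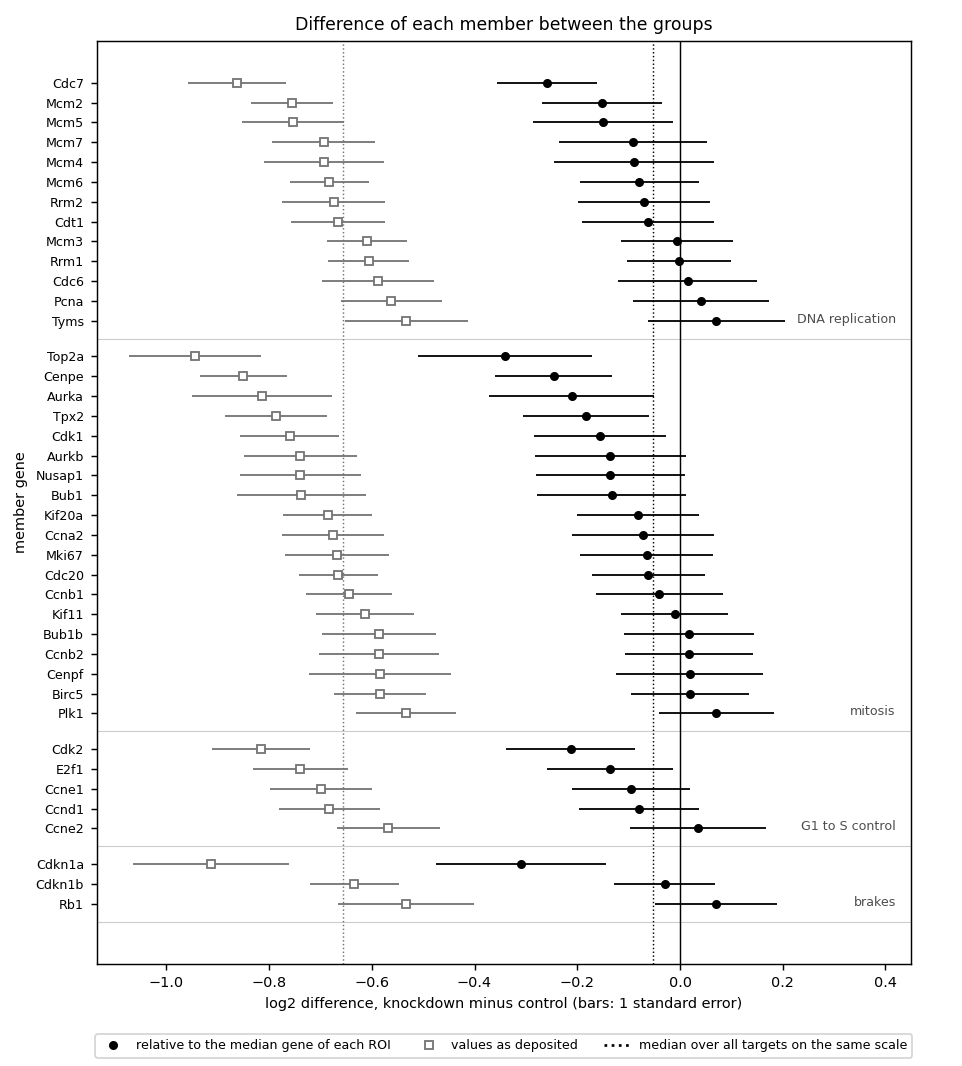
Log2 difference (knockdown minus control) of each of the 40 genes, by role, with bars of 1 standard error. Filled points are relative to the median gene of each ROI and lie on either side of 0, open squares are the values as deposited and all lie below -0.5, and dotted lines mark the median over all targets on each scale.

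Among the replication genes, Cdc7, the kinase that triggers licensed origins to fire, had the smallest p. It had deposited values of 24.5 to 56.4 in knockdown ROIs (median 35.4) and 48.4 to 79.1 in control ROIs (median 64.0), and 12 of 13 knockdown ROIs lay below the lowest control ROI. The exception was ROI 26, where 56.4 stands for 4 reads. Relative to the median gene, its log2 difference was -0.26 (SE 0.10, adjusted p = 0.388), and -0.27 without ROI 26 (adjusted p = 0.308). Mcm2, a subunit of the MCM helicase that unwinds DNA ahead of the fork, had 109 to 181 (median 141) in knockdown and 192 to 288 (median 253) in control ROIs as deposited. The groups did not overlap on that scale, but relative to the median gene the difference was -0.15 (SE 0.12, adjusted p = 0.681), and the ranges of 2.28 to 3.31 in knockdown and 2.36 to 3.32 in control ROIs were nearly the same. Pcna, the sliding clamp of DNA polymerase, had 194 to 359 (median 266) in knockdown and 244 to 483 (median 409) in control ROIs. Only 3 of 13 knockdown ROIs lay below the lowest control ROI, and its difference relative to the median gene was 0.04 (SE 0.13, adjusted p = 0.941).

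The remaining replication genes lay between -0.15 and 0.07 relative to the median gene, and none reached an unadjusted p under 0.05. Of the other helicase subunits, Mcm5 was at -0.15 (-0.08 without ROI 26), Mcm7 at -0.09, Mcm4 at -0.09, Mcm6 at -0.08 and Mcm3 at -0.01. The origin licensing factors Cdt1 and Cdc6 were at -0.06 and 0.02. Of the enzymes that supply nucleotides, the ribonucleotide reductase subunits Rrm2 and Rrm1 were at -0.07 and -0.002, and thymidylate synthase (Tyms) was at 0.07. The list's median of -0.07 became 0.01 without ROI 26, in which Mcm7 had 7 reads and Mcm4 had 4.

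Among the mitosis genes, Top2a, the topoisomerase that untangles sister chromatids, had the most negative difference of all 40. It had deposited values of 28.2 to 111 (median 95.7) in knockdown and 147 to 215 (median 167) in control ROIs, without overlap. Its difference relative to the median gene was -0.34 (SE 0.17, adjusted p = 0.506), and it was -0.16 without ROI 26, where 28.2 stands for 2 reads. Cenpe, a kinesin that moves chromosomes to the spindle equator, had 45.0 to 91.4 (median 66.7) in knockdown and 96.1 to 144 (median 125) in control ROIs, again without overlap. Its difference relative to the median gene was -0.25 (SE 0.11, adjusted p = 0.480), and -0.18 without ROI 26, where Cenpe had 4 reads. Mki67, whose product coats mitotic chromosomes and is the usual stain for cycling cells, had 120 to 276 (median 191) in knockdown and 222 to 362 (median 299) in control ROIs. Of the knockdown ROIs, ROI 21 alone reached into the control range as deposited, and the difference relative to the median gene was -0.07 (SE 0.13, adjusted p = 0.892).

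The other mitosis genes lay between -0.21 and 0.07 relative to the median gene. The mitotic kinases were at -0.21 (Aurka), -0.14 (Aurkb), -0.16 (Cdk1), -0.13 (the checkpoint kinase Bub1), 0.02 (Bub1b) and 0.07 (Plk1). Without ROI 26, where Aurka had 1 read and Aurkb 2, these 2 kinases were at -0.12 and -0.01. The cyclins that drive entry into mitosis were at -0.07 (Ccna2), -0.04 (Ccnb1) and 0.02 (Ccnb2). The spindle motors Kif20a and Kif11 were at -0.08 and -0.01, the spindle assembly factors Tpx2 and Nusap1 at -0.18 and -0.14 (Nusap1 at -0.05 without ROI 26), and Cdc20 at -0.06. Birc5 (survivin), a subunit of the chromosomal passenger complex, and Cenpf, a kinetochore protein, were both at 0.02. Standard errors over the 40 genes were 0.10 to 0.17, and each difference in this paragraph lay within 2 standard errors of 0.

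**Figure D2:**
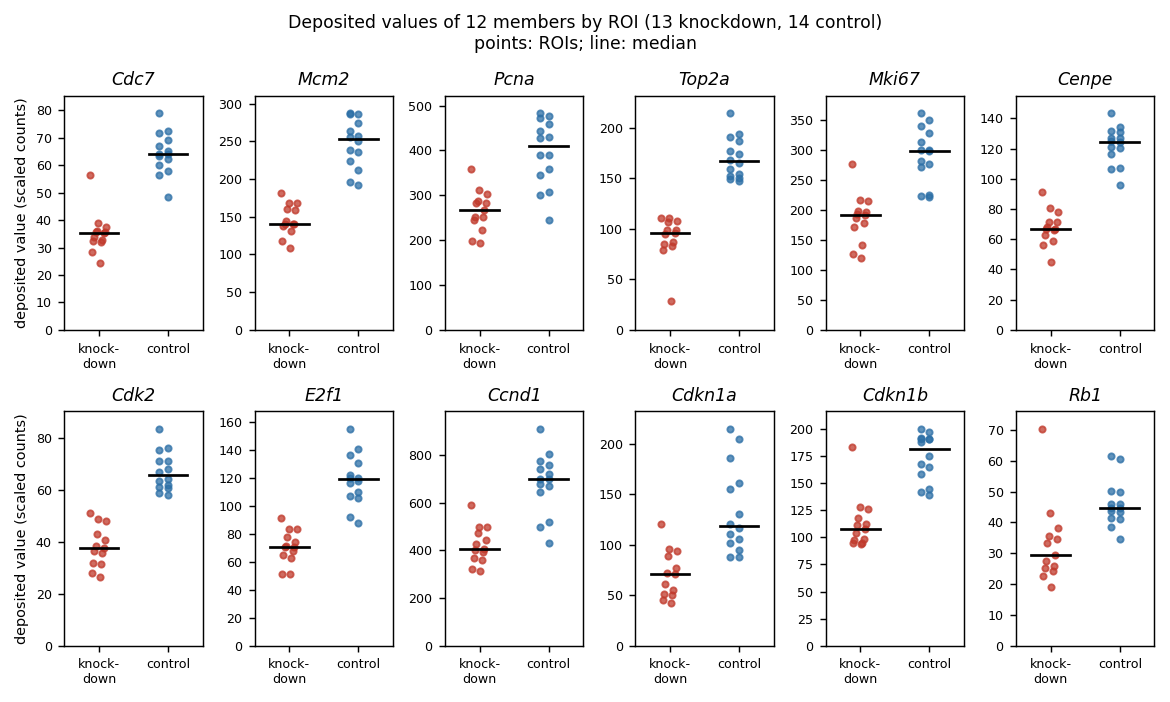
Deposited values (scaled counts, linear axes from 0) of 12 genes in 13 knockdown ROIs (left, red) and 14 control ROIs (right, blue), with a line at each median. Knockdown medians are lower in all 12 panels, and the lone high knockdown points of Cdc7, Cdkn1b and Rb1 are ROI 26.

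Of the genes that control entry into S phase, Ccnd1 (cyclin D1), which joins growth signals to the cell cycle, had 315 to 592 (median 406) in knockdown and 431 to 910 (median 700) in control ROIs. The ranges overlapped, and relative to the median gene its difference was -0.08 (SE 0.12, adjusted p = 0.844). Cdk2, the kinase partner of the E and A cyclins, had 26.7 to 51.1 (median 37.6) in knockdown and 58.3 to 83.7 (median 65.8) in control ROIs without overlap, and a difference relative to the median gene of -0.21 (SE 0.13, adjusted p = 0.60), or -0.13 without ROI 26, where it had 2 reads. E2f1, an activating E2F factor, had 51.2 to 91.3 (median 70.4) in knockdown and 87.9 to 155 (median 119) in control ROIs, with 1 knockdown ROI inside the control range. Its difference relative to the median gene was -0.14 (SE 0.12, adjusted p = 0.735). The cyclins E1 and E2 (Ccne1 and Ccne2), which activate Cdk2, were at -0.10 and 0.04 relative to the median gene, and at -0.04 and 0.13 without ROI 26.

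Of the brakes, Cdkn1a (p21), a CDK inhibitor induced by p53, had 42.3 to 121 (median 71.1) in knockdown and 87.9 to 215 (median 118) in control ROIs. In all, 9 of 13 knockdown ROIs lay below every control ROI on the deposited scale, and relative to the median gene the difference was -0.31 (SE 0.17, adjusted p = 0.551), or -0.21 without ROI 26. Cdkn1b (p27), a CDK inhibitor of resting cells, had 93.7 to 183 (median 108) in knockdown and 139 to 200 (median 181) in control ROIs. Its highest knockdown value was that of ROI 26, from 13 reads, and its difference relative to the median gene was -0.03 (SE 0.10, adjusted p = 0.941). Rb1, which holds E2F factors inactive, had 19.1 to 70.4 (median 29.5) in knockdown and 34.7 to 61.5 (median 44.7) in control ROIs, and again the highest was ROI 26, from 5 reads. Its difference relative to the median gene was 0.07 (SE 0.12, adjusted p = 0.871).

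Other genes of the same pathways gave no call either. Relative to the median gene, limma called none of 44 other replication genes, 46 other mitosis genes, 18 other G1 cyclins, kinases, E2F and pocket proteins, 6 other CDK inhibitors and 16 p53 targets, and edgeR, DESeq2 and an ordinary t test called none of them. At an unadjusted p under 0.05, limma put 5, 1, 3, 2 and 5 of them lower, in that order, and none higher, beside 6.73% of all targets lower and 3.16% higher. Without ROI 26, limma put 1, 1, 2, 2 and 4 of them under this p in either direction, beside 1792 of all 18855 targets. At the same unadjusted p, edgeR put 0, 0, 2, 1 and 4 lower and 2 of the replication genes higher. Over all 18855 targets, edgeR put 747 lower and 1057 higher. The median limma differences of these lists were -0.11, -0.10, -0.14, -0.12 and -0.06. The smallest p among replication genes belonged to Prim2, a primase subunit (-0.32, adjusted p = 0.466), Orc2, of the origin recognition complex (-0.35, adjusted p = 0.484), and Chaf1a, which loads histones on new DNA (-0.38, adjusted p = 0.492). Without ROI 26, where the lowest value of Orc2 and Chaf1a, 14.1, stands for 1 read, these were -0.23, -0.19 and -0.18. Among mitosis genes they were the checkpoint kinase Ttk (-0.37, adjusted p = 0.391), Ect2, which directs cytokinesis (-0.22, adjusted p = 0.513, and -0.14 without ROI 26), and the phosphatase Cdc25c (-0.27, adjusted p = 0.521). Among the G1 genes they were Myc, a growth-promoting transcription factor (-0.33, adjusted p = 0.406), the E2F partner Tfdp1 (-0.30, adjusted p = 0.433) and cyclin D2, Ccnd2 (-0.25, adjusted p = 0.475). The CDK inhibitors Cdkn2b, Cdkn1c and Cdkn2a were at -0.37, -0.36 and -0.11 (adjusted p = 0.352, 0.466 and 0.80). The p53 targets Gdf15, a secreted stress cytokine, the apoptosis effector Bax and the kinase Plk2 were at -0.56, -0.25 and -0.41 (adjusted p = 0.268, 0.382 and 0.396).

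Some markers of other cells passed the test. Relative to the median gene, limma called 2 of 10 hepatocyte genes higher in knockdown ROIs (Fga and Apoa1), 3 of 12 macrophage and antigen presentation genes (H2-Ab1, Cd74 and H2-Aa) and 1 of 12 lymphocyte genes (Nkg7), beside 0.111% of all targets called higher, and none of the endothelial, fibroblast or epithelial lists. An ordinary t test called 0, 0 and 1 of these 3 lists, and edgeR 6, 4 and 1. Summed deposited values were 225 to 1123 in knockdown and 182 to 719 in control ROIs for the hepatocyte list, 2245 to 4661 in knockdown and 1716 to 5299 in control ROIs for the macrophage list, and 191 to 425 in knockdown and 215 to 494 in control ROIs for the lymphocyte list. No marker was at 0, since the sheet holds no 0. The part of these cells in the values of the proliferation genes was not tested.

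The second question was whether replication and mitosis genes moved apart. A score was taken for each ROI as the mean log2 value of a list relative to the median gene. The replication score was 2.64 ± 0.30 in knockdown ROIs (SD, 13 ROIs) and 2.71 ± 0.29 in control ROIs (SD, 14 ROIs), and the mitosis score 1.83 ± 0.31 and 1.92 ± 0.23 in knockdown and control ROIs. Replication minus mitosis was 0.81 ± 0.10 in knockdown ROIs, from 0.64 (ROI 21) to 0.97 (ROI 27), and 0.79 ± 0.13 in control ROIs, from 0.55 (ROI 14) to 1.04 (ROI 8). The group means differed by 0.03, less than the SD within either group, and every knockdown ROI lay inside the control range. Levels of different probes are not compared by this difference, which is read only between ROIs.

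The spread among ROIs was wider than the gap between groups. The mean over the 32 replication and mitosis genes was 2.16 ± 0.30 in knockdown ROIs (SD, 13 ROIs) and 2.24 ± 0.25 in control ROIs (SD, 14 ROIs). It ran from 1.55 (ROI 26) to 2.61 (ROI 21) in knockdown ROIs and from 1.62 (ROI 14) to 2.55 (ROI 2) in control ROIs, about 1 log2 unit in each group. The low end of each range was a single ROI. Without ROI 26 the knockdown mean was 2.21 ± 0.25 (SD, 12 ROIs), from 1.78 (ROI 16), and the next lowest control ROI was ROI 7 at 1.93. ROI 26 was the lowest knockdown ROI for 17 of the 32 genes and ROI 14 the lowest control ROI for 23 of them, while ROI 21 was the highest knockdown ROI for 17 and ROI 2 the highest control ROI for 13. No share over all targets was taken for these counts, and in ROI 26, 9240 targets stood at 1 read. In ROI 21, Mki67 stood at 3.94, Plk1 at 2.94 and Cenpf at 0.86 relative to the median gene, above every control ROI (at most 3.71, 2.48 and 0.32). ROI 21 was also the knockdown ROI with the lowest epithelial score, the mean of Epcam and Krt8 (-1.32).

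**Figure D3:**
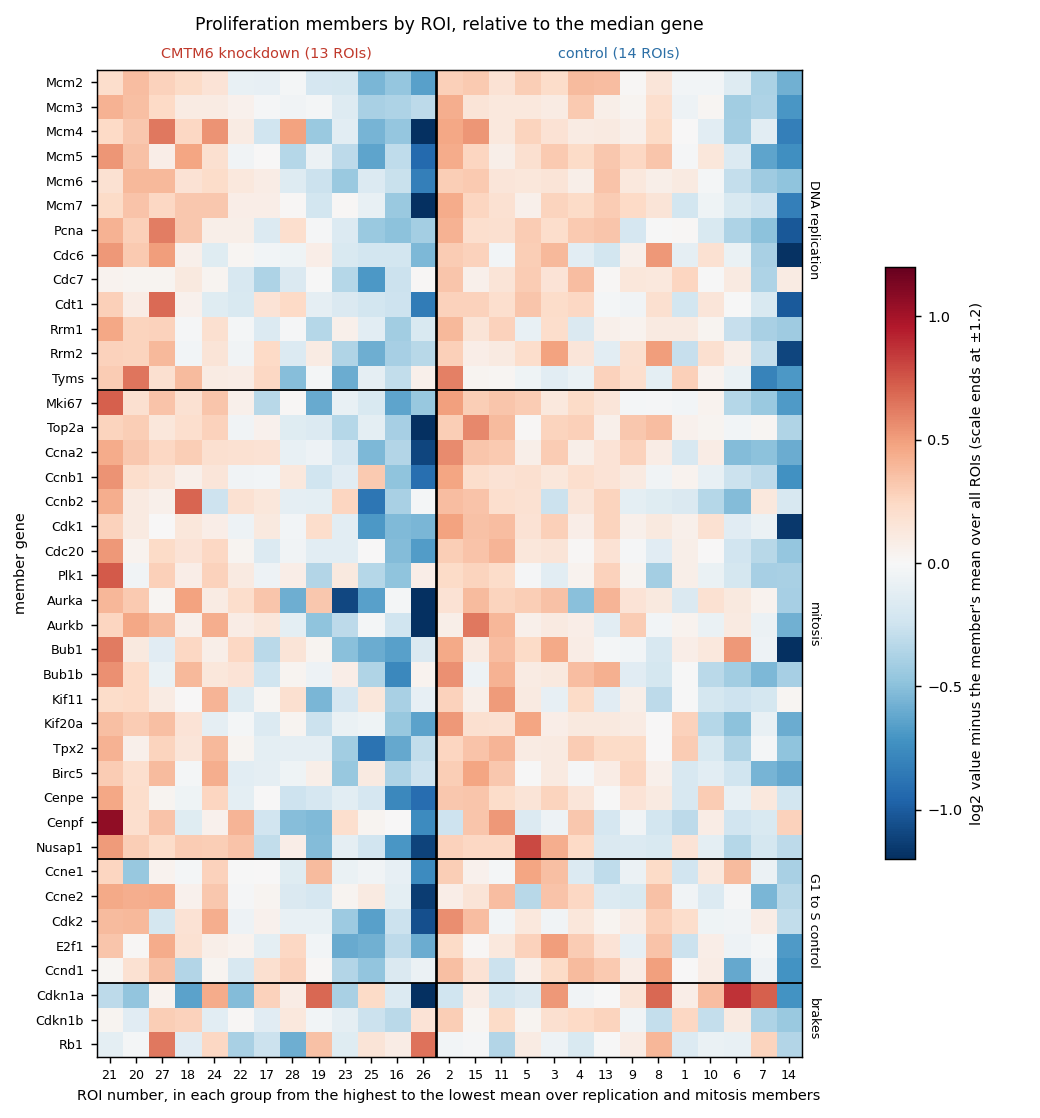
Log2 value of each gene relative to the median gene, minus the mean of that gene over all 27 ROIs, with knockdown ROIs left and control ROIs right, each ordered from the highest to the lowest mean over replication and mitosis genes (colors end at ±1.2). Columns are red or blue over most replication and mitosis genes at once, from ROI 21 to ROI 26 in knockdown and from ROI 2 to ROI 14 in control ROIs, while Cdkn1a and Rb1 do not follow this order.

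The genes of a list went up and down together over ROIs. After the mean of each group was taken off, Pearson's r between a gene and the mean of the rest of its list, over 27 ROIs, had a median of 0.84 for the 13 replication genes and 0.77 for the 19 mitosis genes. Mcm2 (0.95), Mcm3 (0.94), Mcm5 (0.92) and Pcna (0.91) led the replication genes and Cdc20 (0.94), Ccna2 (0.91) and Mki67 (0.90) the mitosis genes. Cdc7 (0.47) and Cenpf (0.48) followed their lists least. Other replication genes had a median r of 0.74 with the replication score, and other mitosis genes 0.77 with the mitosis score, beside 0.41 and 0.40 over 11277 other targets above background. Replication and mitosis scores were themselves close (r = 0.95 and rho = 0.93 in knockdown, 13 ROIs; r = 0.90 and rho = 0.75 in control, 14 ROIs). These correlations are descriptions: both sides come from the same library of an ROI, share its median and depth, and ROIs share mice.

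One other quantity of the ROIs moved with them. The median of targets above background on the same relative scale was taken as a measure of how far signal stood over background in an ROI. The proliferation genes are themselves among these targets, and whether this median reflects the library or the cells was not tested. It was 0.57 to 1.05 in knockdown and 0.71 to 1.11 in control ROIs, lowest in ROI 26 and ROI 14. The mean over replication and mitosis genes had r = 0.91 and rho = 0.94 with it in knockdown ROIs, and r = 0.92 and rho = 0.79 in control ROIs. Without the 2 ROIs farthest from the median, r was 0.93 and 0.78 in knockdown and control ROIs. When values were taken relative to the targets above background, a choice made after the data were seen, the median r of a gene with the rest of its list was 0.70 for replication and 0.55 for mitosis, beside 0.05 for other targets with either score. Mcm2 (0.88) and Cdc20 (0.88) led on this scale too, and Cdc7 stood at 0.06. The correlation of the mean with log2 reads was 0.49 in knockdown ROIs and -0.02 without ROI 26, and 0.38 in control ROIs.

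The targets most like each list, by r over 27 ROIs with group means taken off, had median reads of 163 (Pclaf) to 3602 (Rps2). With the replication score they were Ppia, or cyclophilin A (0.97), Pclaf, a PCNA-binding protein (0.96), the RNA-binding protein Pcbp1 (0.96), the ribosomal protein Rps2 (0.96) and Anp32e, a histone chaperone (0.96). With the mitosis score they were the RNA-binding protein Khsrp (0.94), Ppia (0.94), Cdk4, the kinase partner of cyclin D (0.94), Park7 (0.93), Nucks1 (0.93), the tubulin Tubb5 (0.93), Rpl28 (0.93), the nuclear import factor Kpna2 (0.93), lamin B1, Lmnb1 (0.93), and Polr2a, of RNA polymerase II (0.93). Neither set held a gene of the wider replication or mitosis lists. Without ROI 26 the gene most like the mitosis score was Kifc1, a kinesin of the wider mitosis list (0.93), ahead of Khsrp (0.93).

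The third question was how proliferation genes varied with epithelial and fibroblast genes from ROI to ROI. Against the epithelial score, the mean over replication and mitosis genes had r = -0.16 and rho = -0.15 in 13 knockdown ROIs, and r = -0.46 and rho = -0.47 in 14 control ROIs. Without the 2 ROIs farthest from the median score, r was -0.28 in knockdown and -0.45 in control ROIs. The knockdown value rested on single ROIs, since it was -0.55 without ROI 26 and 0.27 without ROI 21. All 32 genes had a negative r with the epithelial score in control ROIs, from -0.62 (Rrm1) to -0.02 (Bub1), and 25 of 32 in knockdown ROIs, from -0.67 (Plk1) to 0.28 (Top2a). Because these genes went up and down together, they are not 32 separate observations, and no share over all targets was taken. Whether the groups differed in their correlation with the epithelial score was not tested. The score rests on 2 probes near background, Epcam below it. The wider list of 11 epithelial genes, 2 of them above background, gave r = -0.75 and rho = -0.76 in knockdown ROIs, with r = -0.75 again without ROI 26, and r = -0.72 and rho = -0.76 in control ROIs. Without the 2 ROIs farthest from its median, r was -0.68 and -0.72 in knockdown and control ROIs. The part of background in these values was not tested. A negative r was not particular to epithelial genes. With the lymphocyte list, the same mean had r = -0.47 in knockdown ROIs (-0.775 without ROI 26) and -0.49 in control ROIs. With the hepatocyte list r was 0.33 in knockdown and -0.52 in control ROIs. It was 0.23 and 0.16 in knockdown and control ROIs with the macrophage list, and 0.54 and 0.46 with the endothelial list. Without ROI 26 the knockdown r with the hepatocyte, macrophage and endothelial lists was 0.05, -0.025 and 0.25. Without the 2 ROIs farthest from each median, these were 0.14, 0.04 and -0.09 in knockdown ROIs. In control ROIs they were then -0.25, -0.33 and 0.24, so the values with these lists were not stable.

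Against Col1a1, the same mean had r = 0.02 and rho = -0.10 in knockdown and r = -0.20 and rho = -0.10 in control ROIs, and without the 2 ROIs farthest from the median r was 0.22 and -0.04 in knockdown and control ROIs. Still relative to the median gene, the control r was 0.01 without ROI 7. Relative to targets above background r was -0.18 in knockdown and -0.44 in control ROIs. Neither the size nor the sign of r was stable. The wider list of 15 fibroblast genes gave r = 0.31 and rho = 0.35 in knockdown and r = 0.32 and rho = 0.29 in control ROIs. Without the 2 ROIs farthest from its median, r was 0.665 in knockdown and 0.21 in control ROIs. Relative to targets above background it was -0.03 in knockdown and -0.01 in control ROIs, so this r was not stable either. Single genes ran from -0.45 (Aurka) to 0.45 (Kif11) in knockdown and from -0.59 (Cdc7) to 0.38 (Ccnb2) in control ROIs. All 13 replication genes had a negative r with Col1a1 in control ROIs, with a median of -0.28, and 7 of 13 in knockdown ROIs, with a median of -0.02. Because these genes went up and down together, they are not 13 separate observations, and no share over all targets was taken. The mean of the 5 G1 to S genes followed the mean of replication and mitosis genes (r = 0.91 in knockdown, 0.83 in control ROIs), while for the mean of the brakes the sign was not stable. It had r = 0.13 and rho = 0.05 in knockdown and r = 0.32 and rho = -0.21 in control ROIs, and r of 0.10 and -0.58 in knockdown and control ROIs without the 2 farthest ROIs. Cdkn1a had r = 0.59 with the epithelial score in knockdown ROIs, 0.47 without ROI 26, and 0.27 in control ROIs.

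**Figure D4:**
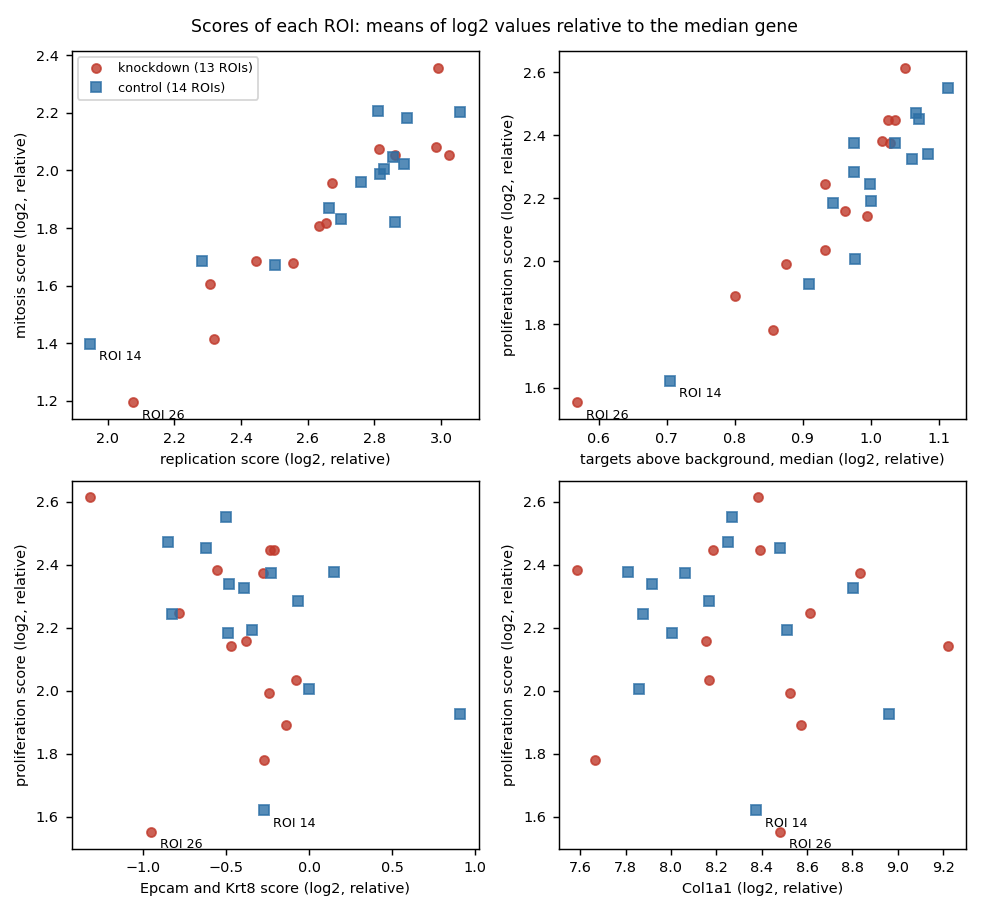
Scores of 13 knockdown ROIs (circles) and 14 control ROIs (squares), each a mean log2 value relative to the median gene. The replication and mitosis scores rise together, the proliferation score (32 genes) rises with the median of targets above background, and it shows a wide scatter against the Epcam and Krt8 score and against Col1a1.

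The spread of single genes was set beside what counting alone would give. Counting error was taken as the Poisson error of the recovered reads, which covers counting only, because reads of one molecule cannot be told apart here. The SD over ROIs relative to the median gene exceeded 1.5 times the counting SD for 32 of the 40 genes in knockdown ROIs without ROI 26 and for 33 of 40 in control ROIs, with medians of 2.07 and 2.28 times. The ratio was taken for these 40 genes only, so no share over all targets stands beside these counts. Whether other targets spread as widely was not tested. In knockdown ROIs Rrm2 reached 4.30 times (SD 0.31, counting SD 0.07), Mki67 3.92 times (0.40 and 0.10) and Ccnd1 3.85 times (0.27 and 0.07). In control ROIs Rrm2 reached 6.37 times (0.40 and 0.06), Ccnd1 6.05 times (0.36 and 0.06) and Pcna 5.08 times (0.40 and 0.08). Cdc7 had no more spread than counting in either group (1.00 times in knockdown, 0.995 in control ROIs), with a median of 41 reads in knockdown and 69.5 in control ROIs. The same held for Ccne1 in knockdown ROIs (0.94 times, median 34 reads) and for Cenpf and Rb1 in control ROIs (0.93 and 0.95 times, medians 25 and 46 reads). These ratios do not show that such genes were level over ROIs. Cdc7 had r = 0.47 with the rest of its list, or 0.60 without ROI 26. Beside these, other targets above background had a median r of 0.41 with the replication score, or 0.345 without ROI 26. Relative to targets above background, r of Cdc7 was 0.06, or 0.24 without ROI 26.

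**Figure D5:**
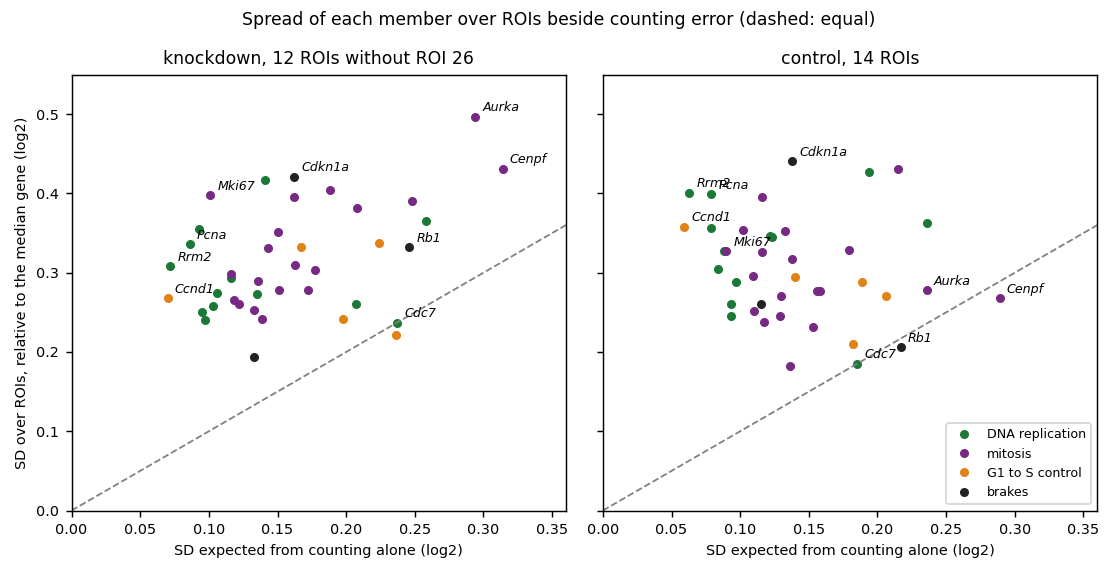
SD of each gene over ROIs, relative to the median gene (vertical, log2), against the SD expected from counting reads alone (horizontal, log2), in 12 knockdown ROIs without ROI 26 (left) and 14 control ROIs (right). Points on the dashed line vary no more than counting error, as Cdc7 does in both panels, and Rrm2, Ccnd1, Pcna and Mki67 lie well above it.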

How the data were processed

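CAF segments of 27 ROIs were measured with the GeoMx mouse whole transcriptome panel. Tags of the probes were sequenced and counted, and the authors used the GeoMx DSP Analysis Suite and deposited 1 sheet of signal values for 18855 targets. Its scaling and filters are not given in the sources. All 27 columns were mapped to samples by ROI number. The gaps between low values gave the worth of 1 read in each ROI, and at least 99.98% of deposited signal values per ROI came out as whole reads (tolerance 0.001 reads). Only 3 targets were not whole in some ROI.

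Groups were compared on log2(value + 1) by the two-sided trend test of limma 3.58.1, as deposited and after taking off the median of each ROI, with Benjamini-Hochberg adjustment over all targets and a threshold of 0.05. A log2 difference on the log2(value + 1) scale understates the change of low genes. Recovered reads were tested by the quasi-likelihood test of edgeR 4.0.16 with TMM, and by DESeq2 1.42.0. The study names a two-tailed Student's test for 2 groups, which was run per target as an alternative with the same adjustment. Background was the 95th percentile (4.12 on the log2 scale) of the mean values of 1084 targets from 9 gene families. Alternatives were pseudocounts of 0.1 and 5, other centrings, array weights, a filter on background, and each ROI left out in turn. Counting error was the Poisson error of the recovered reads carried to the log2(value + 1) scale. Its variance was averaged over the ROIs of a group before the root was taken. Fits and correlations were tested on simulated data.

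The 40 genes and the lists were chosen with earlier results of these data known. The genes given in full were Mki67, Top2a, Pcna, Ccnd1, Cdkn1a, Cdkn1b, Rb1 and the 2 of each role with the smallest p. Of each wider list of the same pathways the 3 with the smallest p were named. Of the marker lists, only genes that limma called were named, beside Epcam, Krt8 and Col1a1. R 4.3.3 and Python 3.11.15 were used.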

Additional observations from a re-analysis of the deposited data

How the results depend on the processing

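None of the 40 genes passed the test relative to the median gene under any alternative run: pseudocounts of 0.1 and 5, only targets above background, the 75th percentile scaling, centring on targets above background, array weights, an ordinary test per target, edgeR, DESeq2, and each of the 27 ROIs left out in turn (count 0 throughout). The same held for edgeR without ROI 26, which was chosen after seeing the data. As deposited, all 40 passed under each alternative run. Over the whole sheet limma called 22 targets relative to the median gene, the ordinary test 3, edgeR 128, DESeq2 133, and limma 56 without ROI 26. The median difference over the 40 genes (-0.08) was -0.06 and -0.15 at pseudocounts of 0.1 and 5, -0.02 at the 75th percentile scaling, -0.01 when centred on targets above background, and -0.13 to -0.01 with single ROIs left out. By edgeR on recovered reads its sign changed, with a median of 0.02 over the 40 genes, beside 0.002 over all targets. Replication minus mitosis (0.03) stayed between 0.01 and 0.05. The correlation with the epithelial score in knockdown ROIs ran from -0.55 to 0.27 with single ROIs left out, and was -0.60 (-0.58 in control ROIs) when centred on targets above background, a choice made after seeing the data. That with Col1a1 (0.02 in knockdown and -0.20 in control ROIs) was -0.20 and -0.43 at the 75th percentile scaling and ran from -0.20 to 0.17 in knockdown and from -0.31 to 0.01 in control ROIs with single ROIs left out. The cause was not tested. The 444 alternative values of the 12 genes given in full kept their side of the threshold. No paired analysis was possible because no label ties an ROI to a mouse or to an ROI of the other group. Depth limits ROI 26 most, where each gene had 1 to 42 reads, and mouse effects cannot be told apart from the groups.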
